A study of Mus musculus with 12 samples.

Results

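The axon guidance ligands and receptors described here are the 68 genes of the semaphorin, plexin, neuropilin, Slit, Robo, netrin, Unc5, Eph and ephrin families, taken by name from the 32285 genes of the count table. They were measured by bulk RNA sequencing of the nucleus pulposus, the soft centre of an intervertebral disc, dissected from the tails of 6 Opa1cKO and 6 WT mice aged 12 months. The strain was C57BL/6-129/SvEv in both genotypes. In Opa1cKO mice, Opa1, which encodes a GTPase that fuses inner mitochondrial membranes, was deleted at 3 months with AcanCre, a Cre recombinase expressed from the aggrecan gene and switched on by tamoxifen. Mice of both genotypes received 100 mg/kg tamoxifen on 3 consecutive days and lived for another 9 months. Aggrecan is also made in cartilage and other disc compartments, so the deletion was not limited to the dissected tissue. The sources used here do not say whether WT mice carried Cre or floxed alleles. Each library came from 1 mouse.

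Axon guidance cues are secreted or membrane-bound ligands that were first studied for steering growing nerve fibres and are also used by blood vessels, immune cells and skeletal tissues. Semaphorins signal through plexins, with neuropilins as co-receptors for most class 3 members; Slits signal through Robo receptors; netrins signal through DCC, neogenin and Unc5 receptors. Ephrins on one cell bind Eph receptor tyrosine kinases on its neighbour, and both partners can signal. The healthy disc core holds few or no nerves and vessels, and class 3 semaphorins of disc tissue have been studied as repellents of both.

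Library totals ran from 37268242 to 56618266 counts. Opa1 itself averaged 40.6 CPM in Opa1cKO and 101 CPM in WT libraries, and every Opa1cKO library (highest 47.7 CPM) lay below every WT library (lowest 69.3 CPM). CPM are counts scaled to a common library size with TMM factors. Sex-linked reads contradicted the labelled sex of 4 libraries, Opa1cKO 4 among the Opa1cKO mice and WT 4, WT 5 and WT 6 among the WT mice, and each call described below is also given without these 4 where they were refitted. Summed nucleus pulposus markers (13 genes, among them T, Krt19 and Car3) ran from 29507 to 50786 CPM in Opa1cKO and from 36414 to 48612 CPM in WT. Of those 13, only Cdh2 was called, lower in Opa1cKO. Endothelial markers were scarce, at 12.5 to 22.0 CPM over 12 genes in Opa1cKO and 9.86 to 16.5 CPM in WT. Schwann cell and neuron markers summed to 299 to 368 CPM over 12 genes in Opa1cKO and 283 to 321 CPM in WT. Of these, Uchl1 was higher, at 18.6 CPM in Opa1cKO and 6.60 CPM in WT (log2 fold change 1.47, adjusted p = 0.000249, edgeR), with no overlap, and Nefm had no read in any library. Mural marker sums ran from 319 to 1288 CPM in Opa1cKO and from 276 to 407 CPM in WT. In 5 of 6 Opa1cKO libraries these sums lay above every WT library. Cspg4 makes up most of them and was higher in Opa1cKO (log2 fold change 1.13, adjusted p = 0.0426, edgeR). It was the only 1 of the 4 tested mural markers to be called. Myh11, the next most abundant, pointed the other way, at 35.3 CPM in Opa1cKO and 62.9 CPM in WT (log2 fold change -0.82). Pdgfrb and Des had log2 fold changes of 0.05 and 0.89. Opa1cKO 6 had the highest mural sum, the highest chondrocyte sum (19389 CPM) and the lowest nucleus pulposus sum (29507 CPM) of all 12 libraries. The other Opa1cKO libraries had chondrocyte sums of 7303 to 11170 CPM, below every WT library (11970 to 18670 CPM). Acan makes up most of these sums and averaged 8628 CPM in Opa1cKO and 13062 CPM in WT. None of the 9 chondrocyte markers was called, and their median log2 fold change was 0.62. What part these markers have in the results below was not tested.

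Epha3 and Epha4, the Eph receptor genes with the largest falls, are the members the results turn on. Their promoters are shown as the 250 bases before the start of transcription from RefSeq (GRCm38.p6), 5′ to 3′ on each gene's own strand, with the 5-letter motif ACGTG in capitals. ACGTG is the core of the sites bound by the hypoxia-inducible factors, which are active in the disc core. Both genes lie on the minus strand, Epha3 at chr16:63864176-63864425 and Epha4 at chr1:77515089-77515338, and both starts coincide with the 5′ end of the gene in GENCODE M21.
Epha3: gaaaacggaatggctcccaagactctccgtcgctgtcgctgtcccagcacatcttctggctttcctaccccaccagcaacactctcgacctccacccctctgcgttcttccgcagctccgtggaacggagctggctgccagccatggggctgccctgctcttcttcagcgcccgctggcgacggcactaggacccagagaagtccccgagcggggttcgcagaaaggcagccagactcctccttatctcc
Epha4: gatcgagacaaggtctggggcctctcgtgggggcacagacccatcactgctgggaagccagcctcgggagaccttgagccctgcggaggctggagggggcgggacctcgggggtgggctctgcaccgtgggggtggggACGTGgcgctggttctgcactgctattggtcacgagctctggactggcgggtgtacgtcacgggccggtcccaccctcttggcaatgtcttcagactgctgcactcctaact
Epha3 held no match on either strand and Epha4 held 1, starting 112 bases before its transcription start. Over windows of 300 bases, reaching 50 bases past the start, ACGTG occurred on either strand in 19.6% of 32851 promoter windows and in 13 of the 75 windows of members, or, counted by gene with a match in any window, in 21.8% of 27025 gene symbols, 12 of the 59 matched members and 4 of the 6 matched called members (Epha4, Sema3c, Sema4d and Sema4g). Sema4d counts through 1 of its 3 windows. The Epha3 window held 18 CpG dinucleotides and the Epha4 window 17, against a median of 7 over all windows. Windows of members ran from 2 to 56, and many held more than these. Those of other called members held 42 (Sema3c), 30 (Sema4g), 23 (Plxnd1) and 2 to 3 (Sema4d). A match describes the letters of the window and not binding.

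The families differed widely in level. On the deposited TPM scale, which divides by gene length and so allows genes to be compared, 25 members averaged 10 or more in Opa1cKO and 26 in WT, while 31 members in Opa1cKO and 30 in WT stayed below 1. Ligands known to act through plexins and neuropilins were led by Sema3b, a secreted class 3 semaphorin, at 179 ± 33.1 TPM in Opa1cKO and 164 ± 33.4 TPM in WT (SD, n = 6 each, as for every mean below). Their receptors were led by Plxnb2 (177 TPM in Opa1cKO and 171 TPM in WT), a receptor for class 4 semaphorins, and Nrp2 (153 TPM in Opa1cKO and 165 TPM in WT), a co-receptor for class 3 semaphorins. Per kilobase of the longest annotated transcript Nrp2 was ahead, at 58.0 CPM in Opa1cKO and 63.8 CPM in WT. On that scale Plxnb2 stood at 45.5 CPM in Opa1cKO and 44.7 CPM in WT. Nrp2 made up 99.8% of the neuropilin TPM in Opa1cKO and 99.9% in WT, since Nrp1, which is abundant in vessels and nerves, was at 0.362 TPM in Opa1cKO and 0.0938 TPM in WT.

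Slit ligands were among the most abundant members, and their receptors were almost absent. Slit3 averaged 174 ± 24.0 TPM in Opa1cKO and 218 ± 47.2 TPM in WT, and Slit2 averaged 162 ± 54.5 TPM in Opa1cKO and 182 ± 33.7 TPM in WT. Summed over the 3 Slit genes, libraries held 28921 to 65958 counts in Opa1cKO (28921 in Opa1cKO 6, with 47394 next) and 49448 to 76431 counts in WT. Summed over Robo1, Robo2, Robo3 and Robo4, they held 10 to 88 counts in Opa1cKO and 0 to 29 counts in WT, and none of the 4 receptors passed the filter on low counts. The order of the 2 leading Slits depends on the length used: per kilobase of the longest annotated transcript Slit2 was ahead, at 89.8 ± 31.1 CPM in Opa1cKO and 102 ± 19.0 CPM in WT, whereas Slit3 stood at 43.7 ± 6.43 CPM in Opa1cKO and 55.7 ± 12.4 CPM in WT. The deposited TPM divide by the merged exons of a gene, 25433 bases for Slit2 and 6067 bases for Slit3.

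**Figure D1:**
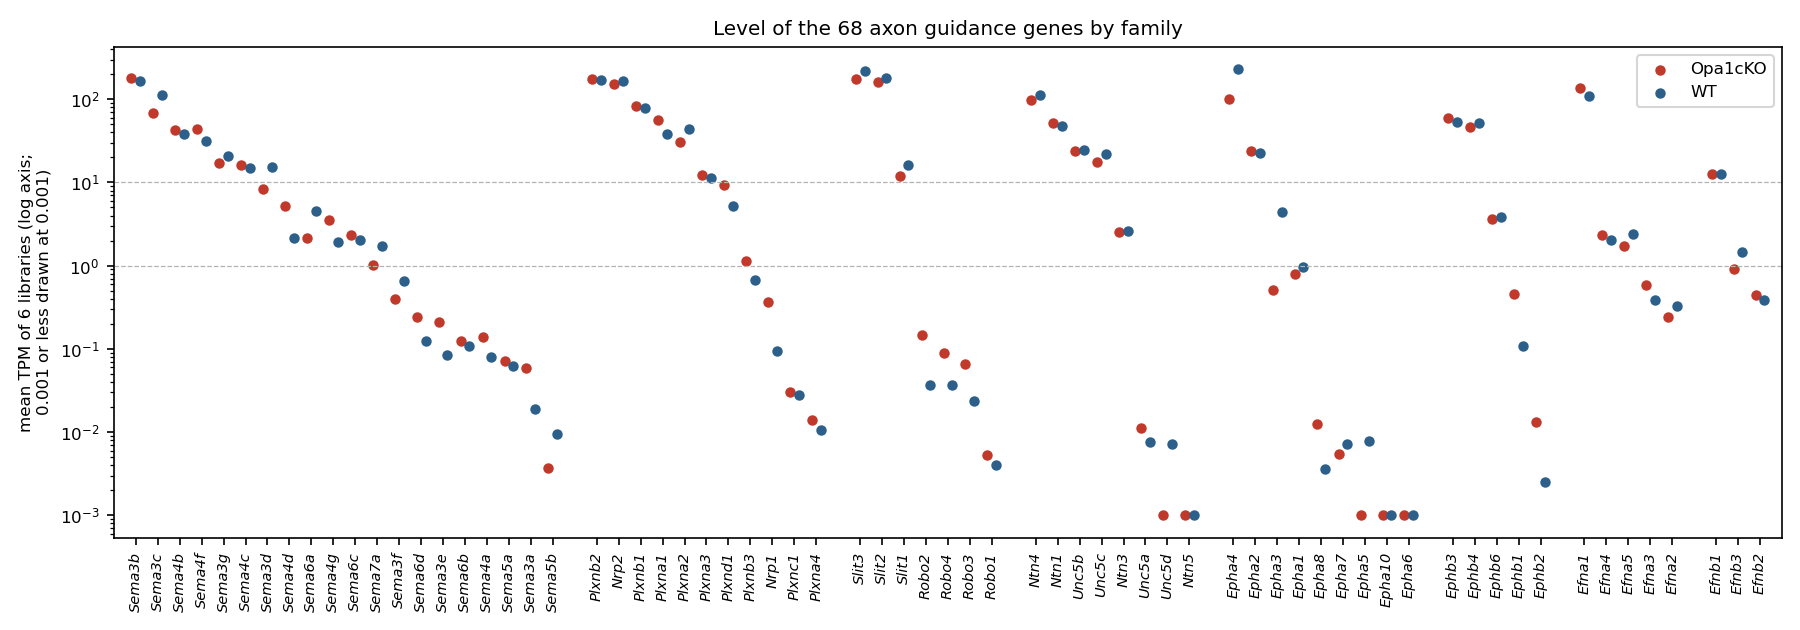
Mean deposited TPM (log axis, values of 0.001 or less drawn at 0.001) of the 68 genes by family, Opa1cKO left of WT for each gene, with dashed lines at 1 and 10 TPM. In most families 1 or a few genes sit above 10 TPM in both genotypes, and all 4 Robo genes lie below 1 TPM beside Slit2 and Slit3 above 100 TPM.

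The netrin family was led by Ntn4, a laminin-related ligand of basement membranes, with 97.8 ± 15.8 TPM in Opa1cKO and 113 ± 12.7 TPM in WT. Ntn1 followed at 51.6 TPM in Opa1cKO and 48.0 TPM in WT. Of their receptors, Unc5b stood at 23.5 TPM in Opa1cKO and 24.7 TPM in WT and Unc5c at 17.5 TPM in Opa1cKO and 21.8 TPM in WT. Among Eph receptors Epha4 led the A class and Ephb3 the B class, the second at 59.5 ± 8.58 TPM in Opa1cKO and 52.6 ± 8.42 TPM in WT. Efna1, a membrane-anchored ligand of A-class receptors, held 96.5% of the ephrin-A TPM in Opa1cKO and 95.5% in WT, and Efnb1, a transmembrane ligand, held 90.3% of the ephrin-B TPM in Opa1cKO and 87.2% in WT.

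Of the 68 members, 47 passed the filter on low counts and were tested. The other 21 had at most 110 counts in a library, that maximum being Ephb1 in Opa1cKO 6, and Ntn5, Epha6 and Epha10 had none in any library. A total of 8 members were called between genotypes at an adjusted p below 0.05 (edgeR's quasi-likelihood test, Benjamini-Hochberg over all 15229 genes tested), which is 17.0% of those tested beside 10.2% of all genes. They split evenly, with 4 higher in Opa1cKO (Sema4d, Sema4g, Plxna1 and Plxnd1) beside 5.1% of all genes, and 4 lower (Epha3, Epha4, Sema3c and Sema6a) beside 5.13%. The median log2 fold change, Opa1cKO over WT, was -0.03 over the 47 members and 0.01 over all genes tested, with 22 members above 0 and 25 below. An estimated change of 2-fold or more was found for 4 of the called members (Epha3, Epha4, Sema6a and Sema4d), beside 3.43% of all genes called at that size. In 2 members, Epha3 and Sema3c, the 6 Opa1cKO values did not overlap the 6 WT values, which is 4.26% of those tested beside 6.41% of all genes. Without the 4 libraries whose reads contradict the labelled sex, 2 members were called, Epha3 and Sema4d, and calls over all genes were also fewer, at 188 higher and 137 lower in place of 777 and 781. That fit kept only WT 1, WT 2 and WT 3, all female, beside Opa1cKO 1, 2, 3, 5 and 6. Fewer mice therefore stood behind each of its calls, and no male WT mouse remained. These p-values rest on mice as replicates, and fewer cells of a type and less RNA per cell cannot be told apart in bulk tissue.

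**Figure D2:**
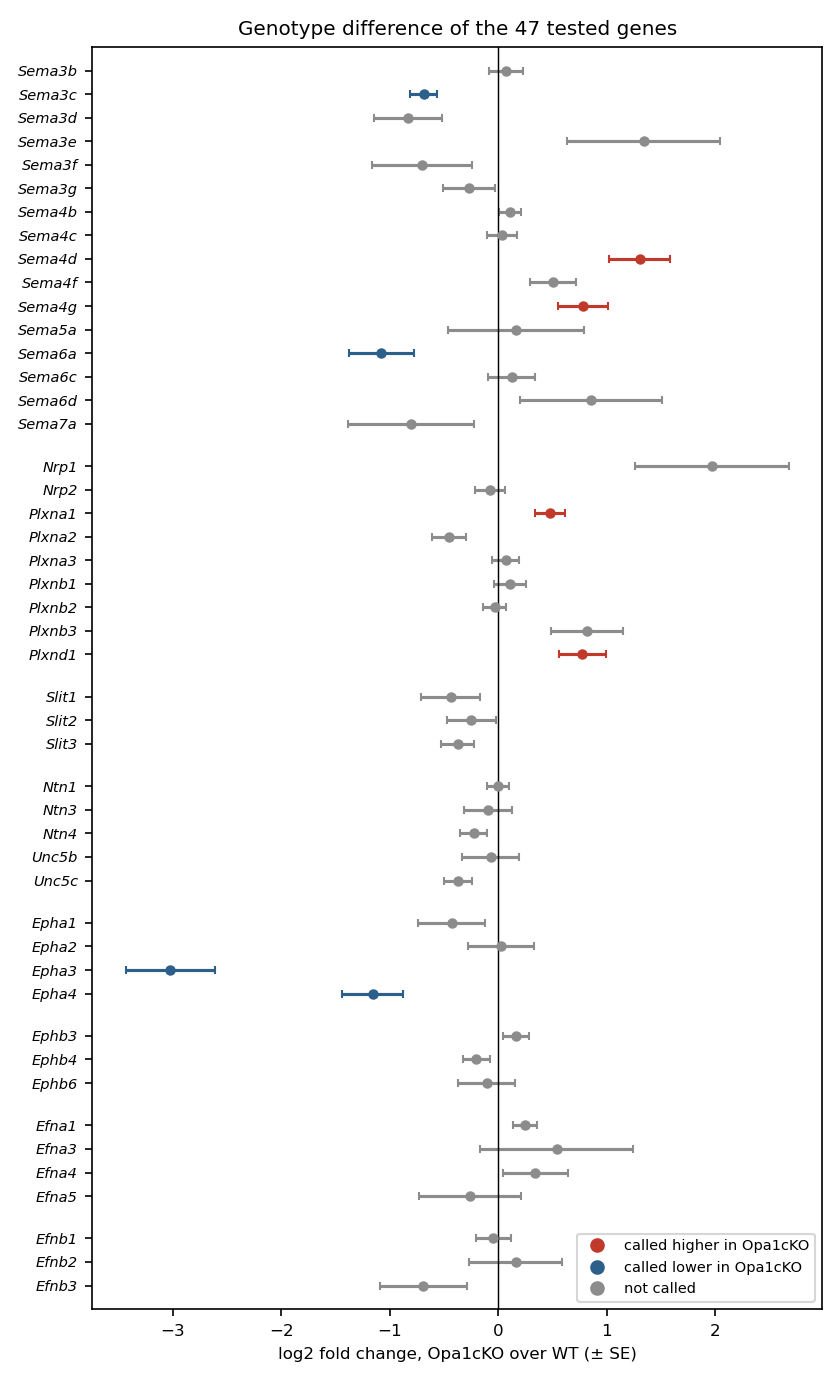
Log2 fold change, Opa1cKO over WT, with its standard error for the 47 tested members by family. The 4 genes called lower (blue) include Epha3 at -3.02, the 4 called higher (red) include Sema4d at 1.30, and grey intervals mark the 39 genes that were not called.

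The A-class Eph receptors held the largest falls. Epha3, a receptor for A-class ephrins, had a lowest value of 0.469, a median of 1.07 and a highest value of 1.43 CPM in Opa1cKO, against 2.71, 9.47 and 13.8 CPM in WT. Every Opa1cKO library lay below every WT library. Its counts were 20 to 65 in Opa1cKO and 131 to 635 in WT libraries, so the Opa1cKO values rest on few reads. The mean was 0.965 ± 0.410 CPM in Opa1cKO and 8.61 ± 4.35 CPM in WT, a log2 fold change of -3.02 (SE 0.414, adjusted p = 0.000787, edgeR). It stayed called under all 27 alternatives run, with log2 fold changes between -3.21 and -1.67 and a highest adjusted p of 0.0131 in those fits, among them -3.05 (adjusted p = 0.0095) without the 4 libraries. Epha3 (ENSMUSG00000052504) spans 63543534 to 63864175 on chromosome 16 of mm10.

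Epha4, a receptor that binds ephrins of both classes, was the most abundant Eph receptor and held 79.7% of the A-class receptor TPM in Opa1cKO and 89.0% in WT. Its lowest, median and highest values were 94.3, 141 and 359 CPM in Opa1cKO, against 301, 419 and 484 CPM in WT. Opa1cKO 5, at 359 CPM, was the only library of its genotype within the WT range, and the next highest was Opa1cKO 2 at 179 CPM. On average Epha4 stood at 174 ± 94.5 CPM in Opa1cKO and 405 ± 73.5 CPM in WT (99.2 TPM in Opa1cKO and 229 TPM in WT). The log2 fold change was -1.16 (SE 0.280, adjusted p = 0.0225, edgeR), and it was -1.71 (adjusted p = 0.000111) without Opa1cKO 5. The call was lost without WT 5 (-1.12, adjusted p = 0.0584), without WT 6 (-1.04, adjusted p = 0.0724) and without the 4 libraries (-0.92, adjusted p = 0.330). It was also lost with no low-count filter (adjusted p = 0.0589) and in libraries with female sex-linked reads alone (-1.12, adjusted p = 0.126). Epha4 (ENSMUSG00000026235) spans 77367185 to 77515088 on chromosome 1.

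Other members of the Eph and ephrin families were not called, and among them only Efna1 had an unadjusted p below 0.05 (edgeR). DESeq2 and edgeR with no low-count filter, which both tested more genes, also called Ephb1. Its counts were 110 in Opa1cKO 6 and 4 to 29 in the other Opa1cKO libraries. Epha2, a receptor of epithelial cells, averaged 24.3 CPM in Opa1cKO and 23.3 CPM in WT (adjusted p = 0.967, edgeR). Ephb3 and Ephb4, receptors for B-class ephrins, had log2 fold changes of 0.16 (SE 0.122) and -0.20 (SE 0.126). Efna1, the main ephrin-A transcript here, averaged 54.0 ± 7.55 CPM in Opa1cKO and 44.5 ± 6.06 CPM in WT, a log2 fold change of 0.25 (SE 0.111, adjusted p = 0.185, edgeR), and it passed the threshold only with sex taken from the reads (adjusted p = 0.0473). Summed A-class receptor TPM was 125 in Opa1cKO and 257 in WT, whereas summed B-class receptor TPM was 111 in Opa1cKO and 109 in WT.

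**Figure D3:**
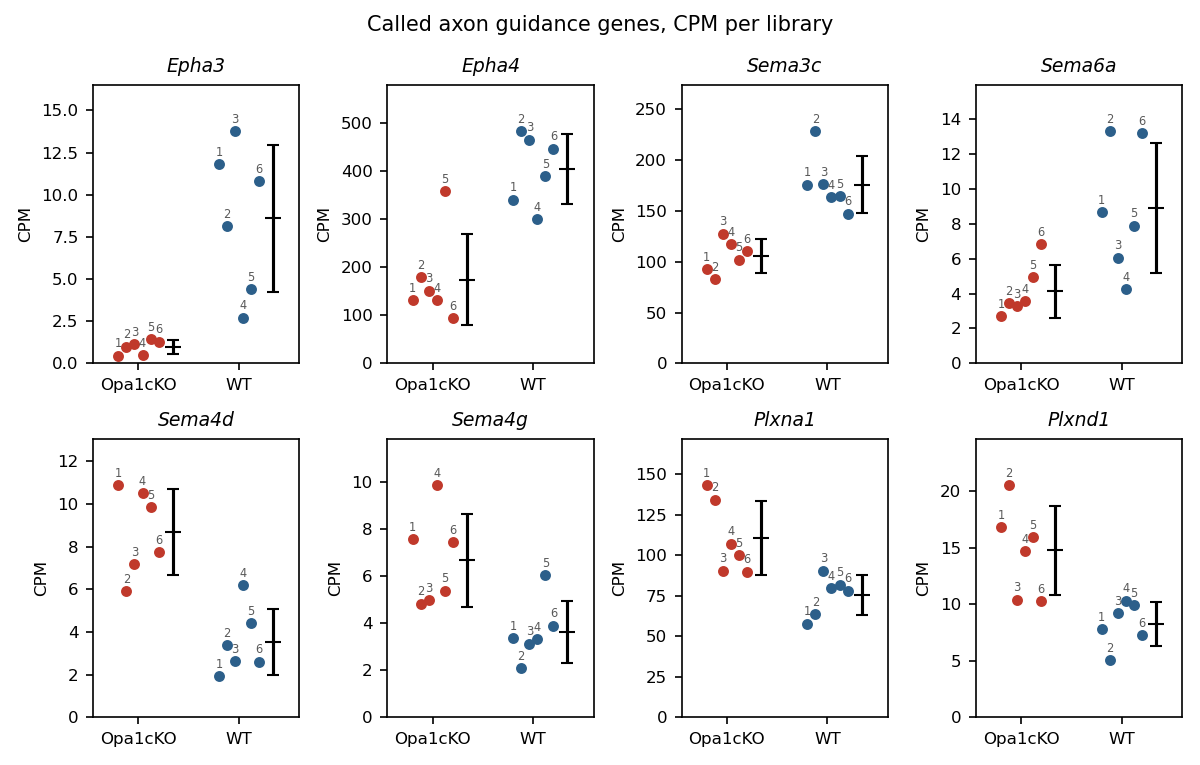
CPM per library (numbered points), with mean and SD, of the 8 called members, Opa1cKO left of WT in each panel. Epha3 and Sema3c show no overlap between genotypes, and in Epha4 Opa1cKO 5 lies inside the WT range at 359 CPM.

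Semaphorin ligands moved in both directions, with 2 of 16 tested members higher and 2 lower in Opa1cKO, beside 5.1% higher and 5.13% lower over all genes. Sema3c, a secreted semaphorin that binds neuropilins, had a lowest value of 82.6, a median of 106 and a highest value of 128 CPM in Opa1cKO, against 147, 170 and 229 CPM in WT. No Opa1cKO library reached the WT range. Means were 105 ± 16.5 CPM in Opa1cKO and 176 ± 27.9 CPM in WT, a log2 fold change of -0.69 (SE 0.126, adjusted p = 0.00403, edgeR). The call held in every fit with a single library left out (highest adjusted p 0.0155) and was lost only without the 4 libraries (-0.86, adjusted p = 0.0619). Sema3c (ENSMUSG00000028780) spans 17574281 to 17730268 on chromosome 5. Sema3b, the most abundant semaphorin, had a log2 fold change of 0.07 (SE 0.160, adjusted p = 0.828, edgeR). Sema3d, another class 3 ligand, averaged 15.3 CPM in Opa1cKO and 28.7 CPM in WT (log2 fold change -0.83, adjusted p = 0.115, edgeR), and passed the threshold only without WT 4 (adjusted p = 0.0438).

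Sema4d, a membrane semaphorin known as a ligand of plexin-B1 and for its release by immune cells and osteoclasts, was higher in Opa1cKO. Its lowest, median and highest values were 5.90, 8.80 and 10.9 CPM in Opa1cKO, against 1.93, 3.02 and 6.21 CPM in WT. Opa1cKO 2 at 5.90 CPM and WT 4 at 6.21 CPM were the only libraries to cross. Means were 8.68 ± 2.02 CPM in Opa1cKO and 3.53 ± 1.56 CPM in WT, a log2 fold change of 1.30 (SE 0.281, adjusted p = 0.0107, edgeR), and 1.73 (adjusted p = 0.0298) without the 4 libraries. Leaving out 1 library at a time gave 1.18 to 1.50 and adjusted p up to 0.0414. Summed macrophage and leukocyte markers ran from 97.2 to 118 CPM in Opa1cKO and from 105 to 197 CPM in WT. Of the 5 tested among them, Cd68 was higher, and Csf1r and Cd163 were lower in Opa1cKO, while the pan-leukocyte gene Ptprc averaged 0.211 CPM in Opa1cKO and 0.263 CPM in WT. Their part in the Sema4d difference was not tested. Sema4d (ENSMUSG00000021451) spans 51685529 to 51793747 on chromosome 13.

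Sema4g and Sema6a, both membrane semaphorins, changed in opposite directions at low levels. Sema4g had values of 4.83 to 9.87 CPM (median 6.41) in Opa1cKO and 2.10 to 6.05 CPM (median 3.33) in WT. WT 5 was the only WT library inside the Opa1cKO range. The log2 fold change was 0.78 (SE 0.232, adjusted p = 0.0473, edgeR). Sema6a, a ligand of class A plexins that also acts as a receptor, had values of 2.71 to 6.81 CPM (median 3.50) in Opa1cKO and 4.26 to 13.3 CPM (median 8.28) in WT. The genotypes overlapped through Opa1cKO 5 and Opa1cKO 6 on one side and WT 3 and WT 4 on the other. Its log2 fold change was -1.08 (SE 0.298, adjusted p = 0.0365, edgeR). Both calls depend on single libraries and on the method. With limma-voom the adjusted p was 0.0843 for Sema4g and 0.0727 for Sema6a, and with log2(TPM + 1) it was 0.0868 for Sema4g and 0.0792 for Sema6a. Sema4g was also lost with upper-quartile factors (adjusted p = 0.0513) and Sema6a with no low-count filter (adjusted p = 0.0535). In female-read libraries alone the adjusted p was 0.0757 for Sema4g and 0.0867 for Sema6a (edgeR). The Sema4g call held only with WT 5, Opa1cKO 2 or Opa1cKO 3 left out, and without any other library the log2 fold change was 0.60 to 0.79 (adjusted p between 0.0623 and 0.195). The Sema6a call was lost without WT 1, 2, 5 or 6 or Opa1cKO 1, 2, 3 or 4 (-1.10 to -0.78, adjusted p between 0.057 and 0.128), and without the 4 libraries the values were 1.16 (adjusted p = 0.0778) for Sema4g and -0.67 (adjusted p = 0.283) for Sema6a. Sema4g (ENSMUSG00000025207) spans 44989101 to 45003397 on chromosome 19 and Sema6a (ENSMUSG00000019647) lies on chromosome 18.

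Of the 7 tested plexins, 2 were higher in Opa1cKO and none was lower, beside 5.1% higher and 5.13% lower over all genes. Plxna1, a receptor that works with neuropilins for class 3 semaphorins and directly with class 6, had values of 89.9 to 143 CPM (median 104) in Opa1cKO and 57.7 to 90.5 CPM (median 78.9) in WT. The ranges met at their edges, where Opa1cKO 6 (89.9 CPM) and Opa1cKO 3 lay just below WT 3. The log2 fold change was 0.48 (SE 0.138, adjusted p = 0.0437, edgeR), and mean levels were 56.6 TPM in Opa1cKO and 38.0 TPM in WT. Plxnd1, a receptor for class 3 semaphorins best known from blood vessels, had values of 10.3 to 20.6 CPM (median 15.3) in Opa1cKO and 5.07 to 10.3 CPM (median 8.52) in WT. Only WT 4 reached the lowest Opa1cKO library, Opa1cKO 6. Its log2 fold change was 0.78 (SE 0.213, adjusted p = 0.0337, edgeR). Endothelial markers, of which 4 were tested and none was called, had sums of 12.5 to 22.0 CPM in Opa1cKO and 9.86 to 16.5 CPM in WT, with a median log2 fold change of 0.31. All 4 lay above 0, among them Vwf at 0.59 (adjusted p = 0.169, edgeR). Of the untested defining genes, Cdh5 averaged 0.129 CPM in Opa1cKO and 0.194 CPM in WT, and Erg averaged 0.417 CPM in Opa1cKO and 0.130 CPM in WT. Their part in the Plxnd1 difference was not tested.

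Both plexin calls also depend on single libraries. Plxna1 lost its call without WT 1, 2, 5 or 6 or Opa1cKO 1, 2, 4, 5 or 6 (0.42 to 0.53, adjusted p between 0.0565 and 0.127) and without the 4 libraries (0.43, adjusted p = 0.345). Plxnd1 lost its call without WT 1, 5 or 6 or Opa1cKO 1, 2, 4 or 5 (0.67 to 0.84, adjusted p between 0.052 and 0.111) and without the 4 libraries (0.83, adjusted p = 0.212). With log2(TPM + 1) the adjusted p was 0.0643 for Plxna1 and 0.0521 for Plxnd1 (limma), and in female-read libraries alone it was 0.114 for Plxna1 and 0.0587 for Plxnd1 (edgeR). All of these fits kept the direction. Plxna1 (ENSMUSG00000030084) spans 89316314 to 89362620 and Plxnd1 (ENSMUSG00000030123) spans 115954811 to 115995005, both on chromosome 6. On the opposite strand of Plxna1 lies the antisense gene Gm26811, which had at most 2 counts in a library.

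The other plexins and neuropilins were not called. Plxna2, which like Plxna1 works with neuropilins, averaged 116 ± 23.0 CPM in Opa1cKO and 167 ± 35.5 CPM in WT, a log2 fold change of -0.45 (SE 0.156, adjusted p = 0.0820, edgeR), and passed the threshold without WT 4, with no sex term and with DESeq2. Plxnb2 and Plxnb1, receptors for class 4 semaphorins, had log2 fold changes of -0.03 (SE 0.104) and 0.11 (SE 0.150). Plxnb3 averaged 1.61 CPM in Opa1cKO and 0.953 CPM in WT (log2 fold change 0.82, adjusted p = 0.135, edgeR), and passed the threshold only without WT 5 (adjusted p = 0.0443). Nrp2 averaged 390 ± 86.5 CPM in Opa1cKO and 429 ± 72.5 CPM in WT (log2 fold change -0.07, SE 0.139, adjusted p = 0.790, edgeR).

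Nrp1, the second neuropilin, had the largest positive estimate among the tested members and rested on 1 library. It stood at 2.93 CPM in Opa1cKO 6, and at 0.108 to 0.530 CPM in the other Opa1cKO libraries, against 0.0434 to 0.310 CPM in WT. The log2 fold change was 1.97 (SE 0.709, adjusted p = 0.0968, edgeR), and 0.30 (adjusted p = 0.862) without Opa1cKO 6. Without Opa1cKO 5 it passed the threshold (2.27, adjusted p = 0.0292). Ephb1 and Robo2 were highest in the same library, at 2.58 and 1.76 CPM. That library also held the highest mural marker sum, most of which is Cspg4, and the part of these markers in the values was not tested. A count of 3 corresponds to 0.0528 to 0.0807 CPM in these libraries, and such floors cover counting error only, since PCR copies cannot be told from separate molecules.

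No Slit, netrin or Unc5 gene was called with the main edgeR fit, DESeq2 or limma-voom. Of them 2, Slit3 and Unc5c, had an unadjusted p below 0.05 in the main edgeR fit. Slit2 averaged 895 ± 309 CPM in Opa1cKO and 1017 ± 189 CPM in WT, a log2 fold change of -0.25 (SE 0.225, adjusted p = 0.528, edgeR). Slit3 averaged 229 ± 33.6 CPM in Opa1cKO and 291 ± 64.8 CPM in WT, a log2 fold change of -0.37 (SE 0.153, adjusted p = 0.141, edgeR). Slit1 stood at 15.4 CPM in Opa1cKO and 21.1 CPM in WT. All 3 point estimates lay below 0 with ranges that overlapped between genotypes. Ntn1 had a log2 fold change of -0.0038 (SE 0.104) and Ntn4 of -0.23 (SE 0.128, adjusted p = 0.289, edgeR). Unc5c, a netrin receptor, averaged 72.4 CPM in Opa1cKO and 91.4 CPM in WT, a log2 fold change of -0.37 (SE 0.132, adjusted p = 0.0905, edgeR) that passed the threshold only without Opa1cKO 6 (-0.51, adjusted p = 0.0445). Neo1, encoding the netrin receptor neogenin, stood at 33.6 TPM in Opa1cKO and 39.7 TPM in WT (log2 fold change -0.25, adjusted p = 0.226, edgeR). Dcc had no read in any library.

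Genes that work beside these families were taken from 2 lists. Of 23 co-receptors and other guidance ligands, 12 were tested and 2 were lower in Opa1cKO, beside 5.13% of all genes. Both belong to the FLRT family, whose products bind Unc5 receptors and latrophilins. Flrt3 had values of 9.24 to 14.6 CPM (median 9.67) in Opa1cKO and 18.9 to 30.7 CPM (median 21.1) in WT, with no overlap. Its log2 fold change was -0.95 (SE 0.147, adjusted p = 0.00135, edgeR), and -1.07 (adjusted p = 0.0613) without the 4 libraries. Flrt2 had values of 7.49 to 18.9 CPM (median 11.1) in Opa1cKO and 10.5 to 51.8 CPM (median 29.4) in WT, overlapping through WT 4. The log2 fold change of -1.44 (SE 0.371, adjusted p = 0.0305, edgeR) lost its call without WT 5 or without Opa1cKO 1, 2 or 6 (-1.42 to -1.25, adjusted p between 0.0544 and 0.113) and without the 4 libraries (-1.72, adjusted p = 0.0536). None of the 12 was called higher in Opa1cKO in the main edgeR fit. In this list, 1 gene was called higher with DESeq2, with sex taken from the reads and with a replicate block. The same count was reached in edgeR without WT 5, Opa1cKO 1 or Opa1cKO 3. The only gene above 0 with an unadjusted p below 0.05 in edgeR was L1cam, an adhesion molecule of axons, at 9.79 CPM in Opa1cKO and 6.10 CPM in WT (log2 fold change 0.76, adjusted p = 0.0522, edgeR), chosen after its value was seen.

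Of 53 genes that carry guidance signals inside the cell, 50 were tested, 11 were higher in Opa1cKO and 1 was lower, beside 5.1% higher and 5.13% lower over all genes, and the median log2 fold change of the list was 0.12. Srgap1, a GTPase-activating protein that binds Robo receptors, had values of 2.93 to 4.71 CPM in Opa1cKO and 0.796 to 1.51 CPM in WT, a log2 fold change of 1.93 (SE 0.217, adjusted p = 0.000144, edgeR). Mical2, a relative of the plexin effector MICAL1 that oxidises actin, had values of 46.6 to 90.4 CPM in Opa1cKO and 21.5 to 27.3 CPM in WT (log2 fold change 1.30, adjusted p = 0.000188, edgeR). Neither gene overlapped between genotypes, and both stayed called without the 4 libraries (2.02 and 1.53). Tiam1, a Rac exchange factor that binds ephrin-B and Eph receptors, averaged 74.8 CPM in Opa1cKO and 38.2 CPM in WT (log2 fold change 0.93, adjusted p = 0.000283, edgeR). Kalrn, an exchange factor downstream of EphB receptors in neurons, averaged 9.83 CPM in Opa1cKO and 2.61 CPM in WT. Its log2 fold change of 1.97 (adjusted p = 0.00208, edgeR) was 1.35 without Opa1cKO 6, the library with the highest value (20.1 CPM). Without the 4 libraries the Kalrn call was lost (2.43, adjusted p = 0.0536), and that of Tiam1 was kept (1.08, adjusted p = 0.0175).

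Ablim1, an actin-binding relative of a nematode netrin effector, averaged 561 CPM in Opa1cKO and 404 CPM in WT (log2 fold change 0.53, adjusted p = 0.00376, edgeR), with its highest value of 728 CPM in Opa1cKO 6. Ptk2, the focal adhesion kinase, averaged 201 CPM in Opa1cKO and 167 CPM in WT (0.32, adjusted p = 0.0125, edgeR). Other genes called higher were Srgap2 (0.49), Srgap3 (0.73), Limk1 (0.49) and Ngef (0.31), a cofilin kinase in the case of Limk1 and an exchange factor that binds EphA4 in the case of Ngef. Arhgef11, an exchange factor that binds B-class plexins, was the gene called lower, at 120 CPM in Opa1cKO and 154 CPM in WT (log2 fold change -0.34, adjusted p = 0.0112, edgeR). Leaving out WT 6 ended the calls of Ptk2 (0.29, adjusted p = 0.0531) and Arhgef11 (-0.29, adjusted p = 0.0528). Without the 4 libraries the calls of Ablim1 (0.58, adjusted p = 0.105), Ptk2 (0.33, adjusted p = 0.183) and Arhgef11 (-0.25, adjusted p = 0.301) were lost. Srgap2, Srgap3, Limk1 and Ngef were not refitted singly. Genes of this list called higher numbered 7 without WT 6, 7 without Opa1cKO 6 and 4 without the 4 libraries. Over all genes, 463, 323 and 188 were called higher in these fits, in place of 777. Most of these proteins also act outside guidance signalling, in cell adhesion and the actin cytoskeleton generally.

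**Figure D4:**
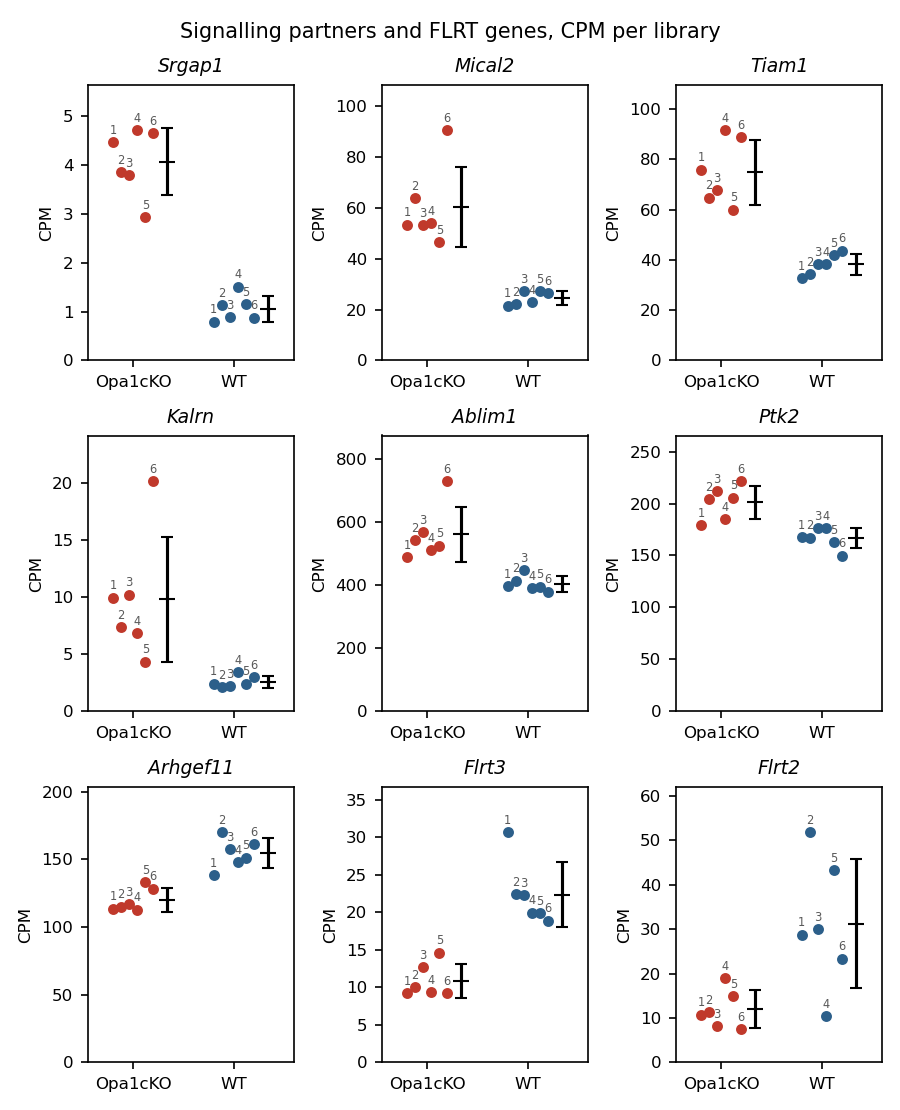
CPM per library (numbered points), with mean and SD, of 7 signalling genes and of Flrt3 and Flrt2, Opa1cKO left of WT in each panel. Flrt2 is the only panel with overlap between genotypes, and Kalrn is highest in Opa1cKO 6 at 20.1 CPM.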

How the data were processed

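Read counts of 32285 genes in 12 libraries were used as the authors deposited them, and the deposited TPM table served for levels between genes. Alignment was with STAR 2.7.11b to mm10, per the submitters' processing notes; no source used here names the counter or its strand setting. The labels give a stranded kit with ribosomal RNA depletion, 50 ng of RNA and 14 PCR cycles. The deposited TPM fitted division by merged GENCODE M21 exons. The test was edgeR's (version 4.0.16, in R 4.3.3) robust quasi-likelihood fit with TMM factors, filterByExpr at a minimum count of 10 and terms for genotype and labelled sex, which the genotypes did not share evenly. P-values were adjusted by Benjamini-Hochberg over 15229 genes. The members and lists were chosen with earlier results of these data known. Named genes were the called members, the leading member by TPM of each family, the 5 uncalled members with the smallest p and up to 8 called genes per partner list with a mean of 1 CPM or more; L1cam, Neo1, Ephb1, Robo2 and other genes with short values were added, and 1 gene that met the rule is not reported here. Alternatives covered sex, normalization, filters, DESeq2 1.42.0, limma 3.58.1, thresholds and each library left out. The fit was tested on simulated counts. No pair of libraries agreed to within sampling noise (smallest chi-square per degree of freedom 33.0). Genes without an entry in the RefSeq table have no printed sequence.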

Additional observations from a re-analysis of the deposited data

Results flagged for a closer look

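In 13 of the 92 sets of 6 values examined, the highest or lowest library was far from the other 5 of its genotype. Of these 13, 6 were Opa1cKO 6. The rule would mark about 1 in 20 sets of independent, normally distributed values. These sets are CPM values that share the same libraries, and Ephb1 and Robo2 were added to them by name. The number of marked sets therefore cannot be compared with that rate. Among members, Epha4 was 358.8 CPM in Opa1cKO 5, with 179.2 CPM next. Nrp1 was 2.926 CPM and Ephb1 2.575 CPM in Opa1cKO 6, with 0.5303 and 0.5915 CPM next. Ephb1 was also apart in WT 4, at 0.3725 CPM with 0.1769 CPM next. Sema3c was 228.6 CPM in WT 2, with 176.2 CPM next. Among partner genes, Kalrn was 20.15 CPM and Ablim1 728.0 CPM in Opa1cKO 6, with 10.24 and 568.3 CPM next, and Flrt3 was 30.66 CPM in WT 1, with 22.45 CPM next. Among summed markers, Opa1cKO 6 had 19390 CPM of chondrocyte markers, with 11170 CPM next, and 1288 CPM of mural markers, with 667 CPM next. Skeletal muscle markers summed to 18.18 CPM in Opa1cKO 4, with 7.299 CPM next, and to 17.8 CPM in WT 5, with 4.892 CPM next. Blood markers summed to 2.743 CPM in WT 2, with 0.4139 CPM next.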

How the results depend on the processing

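No called gene among those refitted changed sign under the 27 alternatives, some of which changed only the threshold. Srgap2, Srgap3, Limk1, Ngef and the called marker genes were not refitted singly. Of the uncalled genes refitted, Efnb1 (-0.20 to 0.09), Plxnb2 (-0.08 to 0.02) and Sema3b (-0.04 to 0.18) changed sign. Nrp1 had no value in 1 alternative. Of the 4 members called higher, 1 was called without the 4 libraries whose reads contradict the labelled sex, 1 with a replicate block, 2 with upper-quartile factors, 1 with log2(TPM + 1), 1 with log2(TPM + 0.1), 0 at an adjusted p below 0.01 and 1 in libraries with female sex-linked reads alone (chosen after seeing the data). Of the 4 called lower, 1 was called without the 4 libraries, 2 with no low-count filter, 2 below 0.01 and 2 in the female-read libraries. Co-receptor genes called higher (0) became 1 with sex from reads, the block, DESeq2 or a threshold of 0.1; those called lower (2) became 1 with sex from reads, the block, limma-voom, no filter or 0.01, and 0 without the 4. Signalling genes called higher (11) became 4 without the 4, 6 with the block and 6 below 0.01; the 1 called lower became 2 with no sex term, 3 with sex from reads, 3 below 0.1, and 0 without the 4, with the block, below 0.01 or in the female-read libraries. Leaving out each library gave 1 to 4 members higher and 2 to 6 lower. It gave 0 to 1 co-receptor genes higher and 1 to 3 lower, and 7 to 12 signalling genes higher and 0 to 3 lower. Over all genes, the same fits called 323 to 1002 higher and 496 to 1008 lower, in place of 777 and 781. Calls over all genes were 228 higher and 326 lower at an adjusted p below 0.01, and 561 and 546 in the female-read libraries. They were 736 and 815 with upper-quartile factors and 656 and 721 with no low-count filter. With log2(TPM + 1) they were 613 and 702, and with log2(TPM + 0.1) 606 and 706. Replicate numbers did not pair the mice: same-numbered deviations correlated at -0.217 to 0.043 and 0 libraries matched their own number best. The block called 351 genes higher and 418 lower, against 777 and 781. No cause was tested. With 6 mice per genotype, few reads limit members below 1 CPM.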
